A study of Caenorhabditis elegans with 8 samples.

Results

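The introns of X-linked genes were those that the authors' junction table places on the X chromosome. There were 925 of them among 20324 introns, in 394 of 5762 genes, or 4.55% of introns and 6.84% of genes, and 6 of the introns carried no gene name. The table came from 8 libraries of polyadenylated RNA. All were made from entire adult Caenorhabditis elegans of strain N2, the wild type, so both groups share the genotype. The spk-1(RNAi) group (4 libraries) was fed bacteria that made spk-1 double-stranded RNA, and the control group (4 libraries) was fed bacteria with the empty feeding vector L4440. In both groups L4 larvae raised at 20 °C spent 24 h at 25 °C on these bacteria, and at least 100 adults were pooled per condition. The labels do not give the sex of the worms. Nor do they say whether replicates came from separate cultures, so a p-value covers only the variation among these 8 libraries, part or all of which may be technical.

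The gene spk-1 encodes a kinase of SR proteins, the splicing factors rich in serine and arginine. The X chromosome of C. elegans has a regulation of its own. In the body of XX animals the dosage compensation complex, built around a condensin, binds both X chromosomes and lowers their transcription, and the protein SDC-2 with its partners, SDC-1 among them, brings it there. In the germ line the X is kept largely silent by chromatin marks, and genes needed for germ cells are scarce on it, so in RNA from whole adults X-linked genes report mainly on body tissues such as intestine, muscle and epidermis. The best known X-linked transcripts of the adult are those of the vitellogenins, the yolk proteins that the intestine makes for the oocytes.

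The libraries had 2660062 to 40426751 junction reads after spk-1(RNAi) and 1821717 to 47299659 in controls, of which 234147 to 4306177 and 147241 to 4511494 lay over X-linked introns. The targeted gene had 10 listed introns, of which 8 were lower after spk-1(RNAi) in 4 of 4 pairs and 2 higher in 4 of 4 pairs. Reads over spk-1 took 0.178% to 6.25% of junction reads after spk-1(RNAi), with the highest share in replicate 2, and 0.0464% to 0.0628% in controls, and they were left out of the total wherever shares of reads are given. Replicates 1 and 2 of both groups stood apart from replicates 3 and 4. Across X-linked genes, which are not independent replicates, log2 values of replicates 3 and 4 correlated at 0.976 to 0.987 among themselves and at 0.883 to 0.919 with replicates 1 and 2. Of the tissue markers looked for, vit-2 and vit-6 (intestine), rme-2 and oma-1 (oocyte), unc-54 (muscle), col-19 (epidermis) and snb-1 (neurons) were measured, and myo-3, dpy-7, unc-13 and the sperm genes msp-3 and spe-9 were not in the table.

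Few X-linked genes reached the table. Every listed intron had at least 21 reads in each control library, while the lowest count after spk-1(RNAi) was 1. On the X, 385 of 2627 protein-coding genes with introns in a reference annotation of another build had a listed intron (14.66%), against 31.61% on the autosomes, where chromosome V had the lowest share (18.33%) and chromosome III the highest (46.52%). None of the 70 measured genes of a germ line and oocyte list (0 genes) was X-linked. The same held for the 64 measured genes of a list of splicing factors and nuclear RNA-binding proteins (0 genes). Both lists were chosen by hand and are not complete. The measured X-linked genes meg-1, meg-3, meg-4 and snrp-40.1, for example, are in neither, so these zeros hold for the listed genes alone. The listed X-linked introns had a median length of 54 nt against 58 nt on the autosomes, between chromosome II (53 nt) and chromosome V (55 nt), and 22 of them (2.38%) were 1000 nt or longer, against 8.39% on the autosomes (6.29% to 9.68% by chromosome). An X-linked gene had a median of 2 listed introns against 3, and 190 X-linked genes (48.22%) had a single one, against 22.39%. The most were found in hrg-11.3, with 28 introns, irg-7, an infection response gene, with 21, and R193.2, with 16.

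A small set of genes held most of these reads. The 5 X-linked vitellogenin genes vit-1 to vit-5 took 49.8% to 56.7% of the reads of X-linked genes after spk-1(RNAi) and 55.3% to 58.2% in controls. The 50 genes with the most reads took 81.1% to 86.8% after spk-1(RNAi) and 80.9% to 86.9% in controls. The ranges of the groups overlapped in each case.

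The first comparison asked how much of the spliced RNA came from the X. X-linked introns held a slightly larger share of junction reads after spk-1(RNAi). The share was 8.80%, 9.39%, 10.67% and 9.98% in replicates 1 to 4 after spk-1(RNAi), and 8.24%, 8.09%, 9.54% and 9.36% in controls. The groups overlap, because replicates 3 and 4 lie above replicates 1 and 2 in both, but within each numbered pair the spk-1(RNAi) library is higher. The mean was 9.71% ± 0.80 after spk-1(RNAi) and 8.81% ± 0.75 in controls (SD, n = 4), a difference of 0.904 percentage points, about the size of the spread within a group. The ratios within pairs were 1.068, 1.161, 1.118 and 1.067. No p is given for a sum over chosen genes. In pooled worms, fewer cells of a type and less RNA per cell cannot be told apart. Without spk-1(RNAi) replicate 3 the difference was 0.584 points, and over the other libraries left out singly it ran up to 1.21 points.

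**Figure D1:**
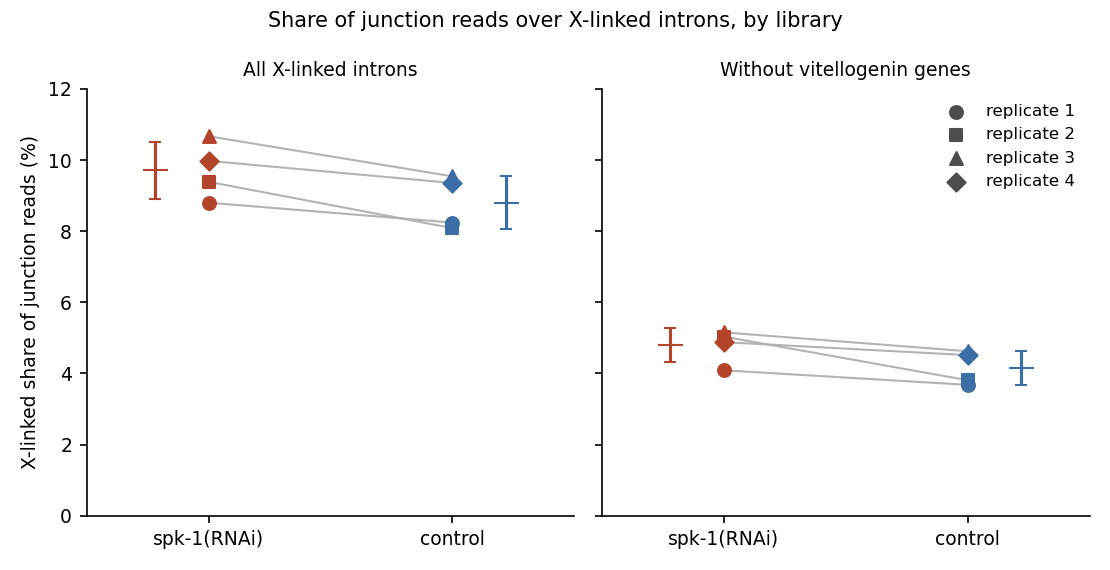
Share of junction reads over X-linked introns in each library, in percent of all junction reads outside spk-1, with all X-linked genes (left) and without the vitellogenins (right). In the right panel the vitellogenins, vit-6 on chromosome IV among them, are left out of the total too. Lines join libraries of the same replicate number and crosses give the mean ± SD of 4 libraries; every spk-1(RNAi) library lies above its paired control, in the left panel at 8.80% to 10.67% against 8.09% to 9.54%.

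Yolk genes and other genes both contributed. Without the vitellogenins the X-linked share was 4.79% ± 0.48 after spk-1(RNAi) and 4.16% ± 0.48 in controls (SD, n = 4), and without the 10 genes with most reads 3.77% ± 0.31 and 3.28% ± 0.23. In each case the genes left out, with vit-6 on chromosome IV among the vitellogenins, were also taken out of the total. Counted over reads assigned to genes, the difference of 0.897 points was made up of 0.334 points from the 5 vitellogenins and 0.562 points from all other X-linked genes. By rank of reads, the first 10 genes gave 0.461 points, genes 11 to 50 gave 0.291 points and the remaining 344 gave 0.145 points, and each of these sets was higher in 4 of 4 pairs. The pairs differed in which set led. In pair 3 the vitellogenins gave 0.682 points and the other genes 0.444 points, whereas in pair 2 the vitellogenins gave 0.162 points and the other genes 1.13 points.

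**Figure D2:**
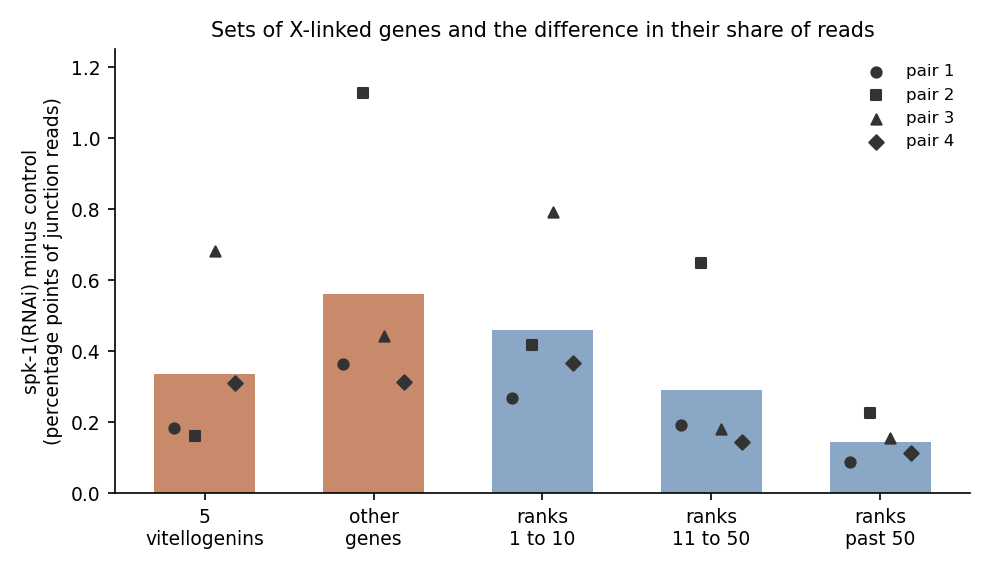
Difference in the share of junction reads, spk-1(RNAi) minus control in percentage points, for the vitellogenins and all other X-linked genes (brown) and for X-linked genes ranked by reads (blue). Bars are the difference of the group means and symbols the numbered pairs, all above 0; pair 2 is the highest for the other genes (1.13 points) and pair 3 for the vitellogenins (0.682 points).

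Single genes contributed unevenly. A larger share of reads was found for 237 X-linked genes and a smaller one for 157, which summed to 0.958 and -0.0612 points. The yolk gene vit-5 gave 24.5% of the net difference, the 5 genes with the largest differences 42.7% and the 50 largest 90.4%. These 5 were vit-5 (0.220 points), vit-3 (0.0536), vit-4 (0.0454), ilys-5 (0.0322), which encodes a lysozyme of the invertebrate type, and stha-3 (0.0322). The most negative differences were those of spp-5 (-0.00379 points), which encodes a saposin-like protein, vit-1 (-0.00372 points) and acly-1 (-0.00303 points), which encodes ATP citrate lyase. Next came Y73B3A.18 (-0.00254 points) and the non-coding RNA tts-1 (-0.00210 points). Each of these is small beside the larger positive differences.

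Counting each gene once gave the same direction. The median log2 ratio of spk-1(RNAi) to control was 0.11 over the 394 X-linked genes and -0.01 over 5368 autosomal genes, a difference of 0.12. It was -0.02 on chromosome I, -0.01 on chromosome II, -0.02 on chromosome III, -0.01 on chromosome IV and 0.01 on chromosome V. In pairs 1 to 4 the X-linked median was 0.01, 0.19, 0.09 and 0.11. It lay above that of each autosome in every pair, by the least in pair 1. In the fit without the block, the difference between X and autosomes varied with single libraries. It was 0.04 without spk-1(RNAi) replicate 2, 0.06 without control replicate 1 and 0.18 without spk-1(RNAi) replicate 1. Leaving out 1 library also breaks its pair. With whole pairs 1 to 4 left out in turn of the fit with replicate number as a block, the difference was 0.15, 0.11, 0.12 and 0.11. The middle 50% of X-linked genes ran from -0.10 to 0.25, so the shift is small beside the spread between genes.

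**Figure D3:**
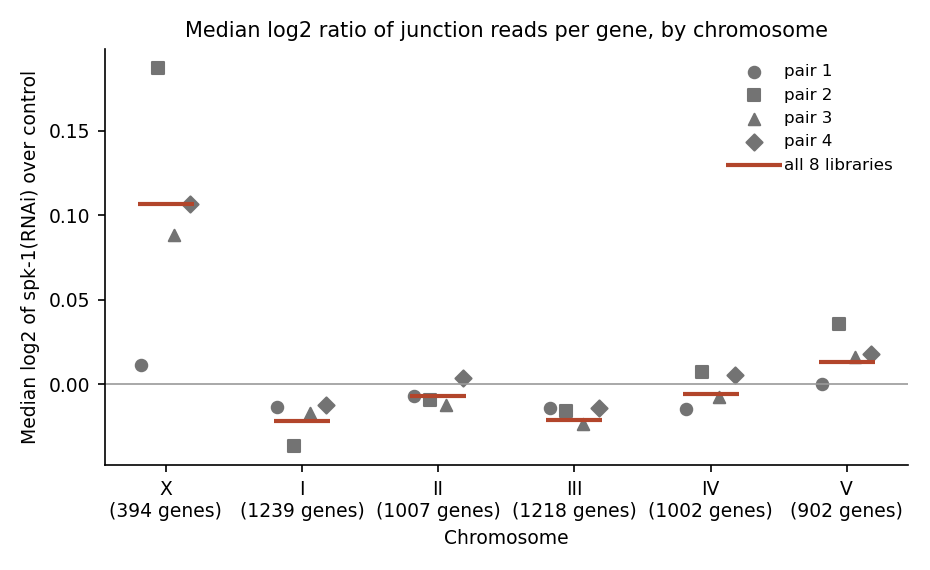
Median log2 ratio of junction reads per gene, spk-1(RNAi) over control, for each chromosome (number of genes in brackets). Grey symbols are the numbered pairs and red lines the fit over all 8 libraries; the X lies at 0.11 with pairs from 0.01 to 0.19, and the autosomes between -0.02 and 0.01.

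More X-linked genes were higher than lower. A log2 ratio above 0 was found for 257 X-linked genes (65.2%), where all genes gave 49%. Higher in 4 of 4 pairs were 64 X-linked genes (16.2%), against 9.63% of all genes, and lower in 4 of 4 pairs 20 (5.08%), against 9.55%. In edgeR's quasi-likelihood test with the replicate number as a block, 41 X-linked genes were higher at an unadjusted p under 0.05 (10.4%, against 5.09% of all genes) and 8 were lower (2.03%, against 4.51%). Groups that did not overlap were found for 1 X-linked gene (0.254%, against 1.04%), eat-20. None of this amounts to a call for a single gene by edgeR over all 8 libraries. After Benjamini-Hochberg adjustment over 5762 genes, edgeR called 0 X-linked genes without the block (0% of all genes) and 0 with it (0%). At an unadjusted p under 0.05 there were 6 of 394 X-linked genes without the block, where all genes gave 0.937%. With the block there were 49 of 394, where all genes gave 9.6%. DESeq2's Wald test called 0 without the block and 3 with it, where it called 0.885% of all genes.

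The difference was spread along the chromosome, and the left end had the lowest median. In windows of 2 Mb, taken by the first listed intron of each gene, the median log2 ratio was above 0 in 8 of 9 windows. From left to right the medians were -0.04, 0.10, 0.14, 0.15, 0.24, 0.15, 0.09, 0.12 and 0.13. The highest lay between 8 and 10 Mb, where 25 of 31 genes were higher, among them the muscle genes unc-27 (troponin I) and tnt-2 (troponin T). The lowest was the window up to 2 Mb, the single one below 0. Its median was below 0 in 4 of 4 pairs (-0.13, -0.09, -0.07 and -0.01), 18 of its 40 genes were higher, and 7 were lower in 4 of 4 pairs, of the 20 such genes on the whole X. In the fit without the block its sign varied with single libraries, since the median of this window was 0.02 without spk-1(RNAi) replicate 1 and 0.0021 without control replicate 2. With whole pairs 1 to 4 left out in turn of the blocked fit, the median of this window stayed below 0 (-0.05, -0.10, -0.03 and -0.07). Over its 11 genes with at least 100 reads in every library the median was 0.07. In windows of 1 Mb, medians below 0 were found up to 3 Mb (-0.02, -0.12 and -0.04) and also from 16 to 17 Mb (-0.05). Those 7 were Y73B3A.1, acly-1, tmed-12, zfp-3, F28C10.3, AC8.1 and ceh-93, named after their values were seen. The same window held col-19, an adult cuticle collagen gene that was higher in 4 of 4 pairs. No test was run between windows.

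**Figure D4:**
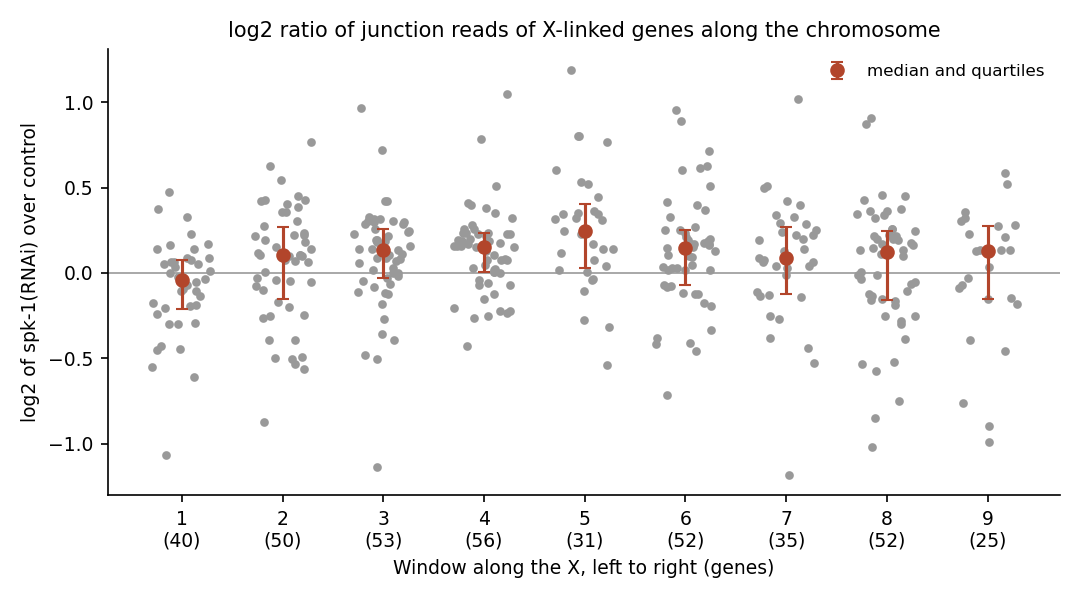
log2 ratio of spk-1(RNAi) to control for each of the 394 X-linked genes (grey points) in 9 consecutive windows of 2 Mb from the left end of the X, with the number of genes in brackets. Red points and bars give the median and the quartiles; the first window lies at -0.04, the fifth at 0.24 and the others between 0.09 and 0.15.

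The shift also differed with the number of reads. Genes were split into 4 classes of nearly equal size by their mean over all 8 libraries, in CPM, junction reads scaled to library size. In the lowest class, up to 29.3 CPM, the median log2 ratio was 0.01 for 206 X-linked genes and -0.08 for autosomal genes. In the classes above it the X-linked medians were 0.15, 0.20 and 0.19, against -0.02, 0.02 and 0.01 on the autosomes, and in the highest class 87.7% of 73 X-linked genes were higher. Since counts reach down to 1 after spk-1(RNAi) and to 21 in controls, introns with few reads entered with a low spk-1(RNAi) count but not with a low control count, on every chromosome. The part of this in the ratios of genes with few reads was not tested. X-linked genes with 1 listed intron had a median of 0.04 and those with more a median of 0.14. By length, the median was 0.17 for 535 introns of 60 nt or less, 0.12 for 245 introns over 60 and up to 300 nt, 0.06 for 123 introns over 300 and under 1000 nt, and 0.05 for the 22 of 1000 nt or more. On the autosomes these classes had 0.01, -0.000153, -0.03 and -0.06.

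The X-linked genes with the smallest p in edgeR's blocked test were all higher after spk-1(RNAi). The first was F53H4.2 (2 listed introns within chrX:15857272-15857587, build ce10). It had 158.0, 137.9, 89.5 and 77.8 CPM after spk-1(RNAi) and 99.9, 68.2, 42.0 and 43.2 CPM in controls, so the groups overlap while each pair differs the same way. Its blocked log2 ratio was 0.90 (SE 0.12, adjusted p = 0.0611 in edgeR), and DESeq2's blocked test called it (adjusted p = 1.2e-06). EdgeR's blocked test called it without replicate 1 (log2 ratio 0.98, adjusted p = 0.0488, with 0.0868% of all genes called) and without replicate 2 (log2 ratio 0.87, adjusted p = 0.0397, with 0.121% called).

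The C-type lectin gene clec-266 (chrX:6617722-6622794, 3 introns) had 44.1, 182.6, 152.3 and 194.0 CPM after spk-1(RNAi) and 51.2, 82.2, 65.5 and 78.6 CPM in controls. Pairs 2, 3 and 4 were more than 2-fold higher and pair 1 was lower, at a ratio of 0.862. The blocked log2 ratio was 0.90 (SE 0.22, adjusted p = 0.224 in edgeR, 0.0232 in DESeq2), and without replicate 1 it was 1.23 (adjusted p = 0.00978 in edgeR). The glutathione peroxidase gene gpx-5 (chrX:9584867-9585870, 3 introns) had 59.3, 89.8, 50.4 and 33.6 CPM after spk-1(RNAi) and 39.5, 42.9, 26.1 and 28.3 CPM in controls. Its blocked log2 ratio was 0.70 (SE 0.17, adjusted p = 0.221 in edgeR, 0.0301 in DESeq2). These 3 genes were the X-linked genes that DESeq2's blocked test called.

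The 7 next genes were not called by either tool. Y62H9A.3 and Y62H9A.4 lie side by side (chrX:11879375-11879816 and chrX:11880427-11881010) and had blocked log2 ratios of 0.54 (SE 0.15) and 0.56 (SE 0.14), both higher in 4 of 4 pairs. They neighbour stha-3 and ule-5, also higher in 4 of 4 pairs, and whether these genes share reads was not tested. The kynureninase gene kynu-1, of tryptophan breakdown, stood at 65.6 ± 30.5 CPM after spk-1(RNAi) and 46.2 ± 18.1 CPM in controls. The cuticle collagens col-178 and col-19 stood at 343 ± 299 and 227 ± 106 CPM after spk-1(RNAi) and at 177 ± 70.9 and 163 ± 64.7 CPM in controls. For tag-18 the means were 156 ± 53.2 CPM and 116 ± 61.5 CPM, and for T02C5.1 215 ± 40.0 CPM and 165 ± 22.1 CPM (SD, n = 4 for each). In edgeR's blocked test the adjusted p of these 7 genes ran from 0.243 to 0.342. In col-178 the value of spk-1(RNAi) replicate 2, 787 CPM, lies far above the others (130.6 to 232 CPM).

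**Figure D5:**
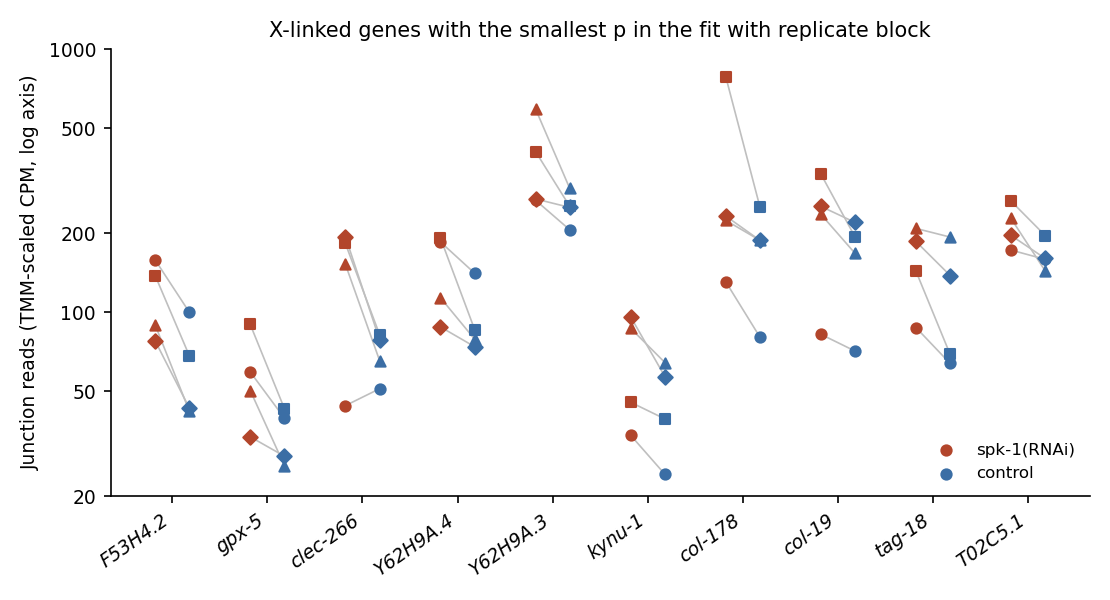
Junction reads in CPM, scaled by TMM, on a log axis for the 10 X-linked genes with the smallest p in edgeR's blocked test. Red symbols are spk-1(RNAi) and blue symbols control libraries, with 1 symbol shape per replicate number and lines joining pairs; all pairs are higher except pair 1 of clec-266 (44.1 against 51.2 CPM).

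The genes with most junction reads differed little. Reads are summed over a gene's listed introns, so these sums compare libraries and not genes. The yolk gene vit-5 (chrX:3404331-3408281) had 10107, 9905, 23436 and 21062 CPM after spk-1(RNAi) and 9874, 7810, 20003 and 17866 CPM in controls. It was higher in 4 of 4 pairs, by 0.21 on the log2 scale with the block (SE 0.14, adjusted p = 0.656 in edgeR), while replicates 3 and 4 exceeded replicates 1 and 2 in both groups by far more. Among the others, vit-2 (chrX:5101885-5105790) stood at 12887 ± 1239 CPM after spk-1(RNAi) and 12716 ± 2245 CPM in controls. For vit-1 (chrX:7728723-7732632) the means were 3174 ± 383 CPM and 3163 ± 365 CPM. The neighbours vit-3 and vit-4 were higher in 3 of 4 pairs, at blocked log2 ratios of 0.08 (SE 0.13) and 0.07 (SE 0.14). Since vit-3, vit-4 and vit-5 are near-identical copies, reads could be split between them and their separate values are uncertain. With scaling to the library total, vit-1 and vit-2 had ratios below 0 (-0.05 and -0.01).

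Beyond the yolk genes, the 5 genes with most reads were each higher in 4 of 4 pairs. The lysozyme gene ilys-5 had 1710, 1649, 3222 and 2493 CPM after spk-1(RNAi) and 1535, 1054, 3086 and 2215 CPM in controls. The cathepsin B-like protease gene cpr-6 stood at 1748 ± 81.0 CPM after spk-1(RNAi) and 1535 ± 246 CPM in controls. The actin gene act-4, whose sequence is close to that of other actin genes and which is therefore uncertain, stood at 1627 ± 1088 CPM and 1432 ± 1174 CPM (SD, n = 4). Its SD exceeds its difference because replicates 3 and 4 had 2504 and 2620 CPM after spk-1(RNAi) and 2366 and 2527 CPM in controls, while replicates 1 and 2 of both groups had 366 to 847 CPM. Blocked log2 ratios of ilys-5, stha-3, cpr-6, act-4 and ZC373.2 ran from 0.20 to 0.37, and edgeR called none of them (0 genes, adjusted p of 0.546 to 0.662).

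In the fit without the block the first intron of each yolk transcript had a higher ratio than the last, but the order between them was not regular. In vit-5 the first intron (chrX:3404331-3404400) had 1400, 914, 5416 and 4151 CPM after spk-1(RNAi) and 1417, 973, 2115 and 2674 CPM in controls, so pairs 3 and 4 were higher and pairs 1 and 2 slightly lower. Its log2 ratio was 0.73, that of the fifth and last intron (chrX:3408230-3408281) 0.01. First and last introns had log2 ratios of 0.41 and -0.13 in vit-4, 0.22 and -0.10 in vit-3, 0.10 and -0.06 in vit-2 and 0.10 and -0.14 in vit-1. The highest ratio was that of the first intron in vit-3, vit-4 and vit-5, and of the third in vit-1 (0.22) and vit-2 (0.12). On chromosome IV, vit-6 had 0.22 and 0.04. With the block the X-linked yolk genes kept this order, but vit-6 did not (0.13 and 0.18). In pair 2 the last intron had the higher ratio in each of these genes. In vit-5 that pair had 2518 against 1740 CPM at the last intron and 914 against 973 CPM at the first. No intron of these genes was called by edgeR over all 8 libraries (0 introns), but the first intron of vit-5 was called in pairs 3 and 4 alone (log2 ratio 0.99, adjusted p = 0.0382, with 0.271% of all introns called). Coverage along transcripts itself differed between libraries. Over the 107 X-linked genes with at least 3 introns, the median log2 ratio of first to last intron was -0.23, -0.17, 0.23 and 0.03 in replicates 1 to 4 after spk-1(RNAi) and -0.21, 0.21, -0.04 and 0.00078 in controls. In autosomal genes it was -0.11, -0.11, 0.03 and 0.06 after spk-1(RNAi) and -0.11, 0.24, -0.15 and 0.09 in controls. Its part in the yolk ratios was not tested. Over all these X-linked genes, first, middle and last introns had median log2 ratios of 0.13, 0.19 and 0.16.

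The genes that govern the X itself were barely represented. Of 20 genes of the X signal and of dosage compensation, 13 were measured and 2 of them are X-linked, each through 1 intron with few reads. The zinc finger gene sdc-1, which acts in sex determination and dosage compensation, had 9.27, 3.33, 4.31 and 6.68 CPM after spk-1(RNAi) and 8.55, 12.2, 9.23 and 17.2 CPM in controls. Pairs 2, 3 and 4 were lower and pair 1 was not, and the blocked log2 ratio was -1.002 (SE 0.34, adjusted p = 0.407 in edgeR). Listed X-linked introns had at least 21 reads in each control library and as few as 1 after spk-1(RNAi). The part of this in the values of sdc-1 was not tested. The nuclear receptor gene sex-1, an X-linked element by which the embryo counts its X chromosomes, had 5.85, 28.1, 6.84 and 6.46 CPM after spk-1(RNAi) and 8.88, 13.6, 4.23 and 6.45 CPM in controls, with replicate 2 alone far from its group. The 11 autosomal members had a median log2 ratio of 0.06. Of 15 measured genes of X silencing in the germ line, lin-15B was the X-linked one, at 9.997 ± 4.91 CPM after spk-1(RNAi) and 8.75 ± 3.03 CPM in controls (SD, n = 4). Its 14 autosomal fellows had a median of 0.01.

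Genes of muscle and cuticle were those whose X-linked members had the highest medians, 0.23 and 0.25, beside -0.0045 over all genes and 0.10 over the 354 X-linked genes in no list. In the muscle list all 7 measured X-linked members were higher (7 of 7), and edgeR called 0 of them with or without the block. Troponin T tnt-2 had 258, 536, 915 and 975 CPM after spk-1(RNAi) and 205, 199, 893 and 861 CPM in controls, higher in 4 of 4 pairs and most so in pair 2. Troponin I unc-27 stood at 825 ± 452 CPM after spk-1(RNAi) and 703 ± 552 CPM in controls, and the myosin light chain gene mlc-2, a near copy of mlc-1 and uncertain for that, at 928 ± 360 CPM and 791 ± 439 CPM. The median in pairs 1 to 4 was 0.20, 1.1, 0.04 and 0.16, highest in pair 2. On the autosomes 17 of 21 muscle genes were higher (median 0.13).

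In the list of cuticle and epidermis 9 of 9 X-linked members were higher (8 of 9 with scaling to the library total), with pair medians of 0.21, 0.87, 0.25 and 0.20, and edgeR called 0. The collagen col-181 stood at 374 ± 101 CPM after spk-1(RNAi) and 262 ± 27.8 CPM in controls, and col-184 at 609 ± 279 CPM and 511 ± 306 CPM (SD, n = 4). The disulfide isomerase gene pdi-2, whose product serves collagen assembly, stood at 675 ± 434 CPM and 581 ± 403 CPM. On the autosomes 20 of 26 members were higher, with a median of 0.28. The median over 70 autosomal germ line genes was -0.03. How far such differences between tissues enter the X-linked median was not tested.

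The X-linked members of the other tissue lists had lower medians. Of the basement membrane list 5 members are X-linked, 2 higher and 3 lower (3 higher and 2 lower with DESeq2's size factors). The type IV collagen let-2 had 243, 244, 463 and 527 CPM after spk-1(RNAi) and 187, 122, 398 and 509 CPM in controls, higher in 4 of 4 pairs (blocked log2 ratio 0.39, SE 0.15, adjusted p = 0.462 in edgeR). The laminin gene lam-2, the syndecan gene sdn-1 and the dystroglycan gene dgn-1 had blocked log2 ratios of 0.34, -0.16 and -0.23. Of 9 X-linked genes of intestine and lipid handling 6 were higher, 5 with DESeq2's size factors and 4 with scaling to the library total, with a median of 0.03. The aspartyl protease genes asp-4 and asp-3 stood at 374 ± 97.7 and 332 ± 134 CPM after spk-1(RNAi) and at 320 ± 61.05 and 292 ± 116 CPM in controls. The propionyl-CoA carboxylase gene pcca-1 stood at 254 ± 121 CPM and 215 ± 123 CPM (SD, n = 4). The axon guidance receptor gene sax-3 was the single X-linked member of the neuron list (log2 ratio -0.08), and rpl-11.2 that of the ribosomal proteins (0.11). The autosomal members did not follow the same order. Of these, 5 of 6 basement membrane genes were higher (median 0.15), above the autosomal median of the muscle list (0.13). For intestine and lipid handling it was 25 of 44 (0.07), for neurons 2 of 4 (0.09) and for ribosomal proteins 11 of 62 (-0.09). EdgeR called 0 X-linked genes in any of these lists.

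Lower values were found in fewer genes, mostly with few reads. The ATP citrate lyase gene acly-1 (chrX:1479606-1483698, 5 introns) had 81.0, 81.0, 195.4 and 207.2 CPM after spk-1(RNAi) and 104.9, 89.003, 225.3 and 275.1 CPM in controls. It was lower in 4 of 4 pairs, with a blocked log2 ratio of -0.29 (SE 0.11, adjusted p = 0.445 in edgeR). Of the 8 lower genes at a blocked, unadjusted p under 0.05, acly-1 was the one with most reads. The others were sdc-1, T14G8.3, cnp-3, the cyclin-dependent kinase gene cdk-4, eat-20, scav-1 and slc-25A21, each with at most 38.4 CPM in any library. In eat-20, named because its groups do not overlap, the values were 4.03, 3.70, 4.84 and 4.22 CPM after spk-1(RNAi) and 5.44, 11.3, 6.09 and 8.33 CPM in controls (blocked log2 ratio -0.77, SE 0.34, adjusted p = 0.504 in edgeR). Listed X-linked introns had at least 21 reads in each control library and as few as 1 after spk-1(RNAi). Genes with few reads could thus enter with low values after spk-1(RNAi) but not in controls. The part of this in the lower values of eat-20 and the other genes with few reads was not tested. The saposin-like gene spp-5 and the non-coding RNA tts-1 stood at 693 ± 118.9 and 144 ± 46.5 CPM after spk-1(RNAi) and at 753 ± 290 and 164 ± 26.2 CPM in controls (SD, n = 4). Despite its lower mean, spp-5 was higher in 3 of 4 pairs (blocked log2 ratio -0.06, SE 0.18). For tts-1, 1 of 4 pairs was higher (blocked log2 ratio -0.24, SE 0.13).

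Intron by intron, 638 of 925 X-linked introns had a log2 ratio above 0 (69.0%, against 50.2% of all introns). Higher in 4 of 4 pairs were 126 (13.6%, against 8.28% of all introns) and lower in 4 of 4 pairs 33 (3.57%, against 7.95%). EdgeR called 0 X-linked introns without the block (0% of all introns) and 0 with it (0.0689%). At an unadjusted p under 0.05 there were 15 of 925 X-linked introns without the block, where all introns gave 0.851%. With the block there were 99 of 925, where all introns gave 8.4%. DESeq2's blocked test called 5 (0.541%, against 0.246% of all introns), in irg-7, clec-266, Y62H9A.4 and, with 2 introns, F53H4.2, all higher. The smallest blocked p in edgeR was that of the first intron of F53H4.2 (chrX:15857272-15857331), at 99.0, 97.6, 47.1 and 36.2 CPM after spk-1(RNAi) and 64.3, 48.8, 17.6 and 19.5 CPM in controls (adjusted p = 0.0619). The second intron of that gene (chrX:15857536-15857587) had 46.6, 45.2, 42.7 and 44.3 CPM after spk-1(RNAi) and 28.6, 18.8, 26.01 and 24.9 CPM in controls, and its groups did not overlap (adjusted p = 0.148). Intron values were scaled over the table of introns and gene values over that of genes, so introns do not sum exactly to their gene. Scaled like the genes, the second intron had 44.9 ± 3.83 CPM after spk-1(RNAi) and 24.7 ± 4.82 CPM in controls (SD, n = 4). The next were introns of clec-266 (4118 nt, blocked log2 ratio 1.09), irg-7 (49 nt, 1.06) and Y62H9A.4 (53 nt, 0.92). In the authors' deposited table, 43 X-linked introns (4.65%) had a p under 0.05 and 10 (1.08%) a p under 0.01, where all introns gave 6.02% and 1.26%.

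Choice of splice site could be examined at 3 X-linked sites among 150, and edgeR called 0 of them without the block (1.33% of all sites) or with it (5.33%). In F48D6.4 introns of 51 nt (chrX:4246813-4246863) and 43 nt (chrX:4246821-4246863) share a donor. The longer took 41.5%, 53.2%, 41.4% and 72.4% of reads at the donor after spk-1(RNAi) and 37.0%, 41.0%, 31.3% and 35.5% in controls. The groups did not overlap, with means of 52.1% ± 14.6 after spk-1(RNAi) and 36.2% ± 4.003 in controls (SD, n = 4), on 83 to 1110 reads per library (adjusted p = 0.969 in edgeR, 0.247 with the block). At a donor of vit-3 an intron of 8528 nt (chrX:3562776-3571303) reaches into vit-4, where it ends between the first and second listed introns of that gene. It took 0.868% ± 0.0869 of reads after spk-1(RNAi) and 1.24% ± 0.185 in controls, lower in 4 of 4 pairs (adjusted p = 0.843 in edgeR, 0.311 with the block), and near-identical copies make such a junction uncertain. In vit-2 the longer intron, of 213 nt, took 3.84% ± 3.26 and 4.23% ± 3.13. Introns compared with the other introns of their gene gave 0 calls among 204 X-linked genes (0.0229% of all genes tested without the block, 0.0686% with it). At an unadjusted blocked p under 0.05 were 7 of them (3.43%, against 5.72%), led by Y73B3A.18 and meg-4. In the authors' deposited exon-bin table, 189 of 18937 X-linked bins with a p (0.998%) lay under 0.05, against 0.986% of all bins, and 0 of them had an adjusted p under 0.05.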

How the data were processed

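Per the file headers, the authors deposited raw, unscaled counts of reads per intron and library, a p-value per intron, and a table of exon bins with p-values and a mean signal score per bin; every deposited p-value cited is the authors' own. Per the submitters' processing notes, TopHat 1.4.1, Bowtie2 2.0.0 and the build ce10 were used, and libraries marked strand by dUTP, per the labels' protocols. Neither the counter nor a rule for listing introns is given in the sources used here; the lowest deposited count was 1 after spk-1(RNAi) and 21 in controls. Introns listed on both strands (25, 0 X-linked) were kept once. No sample column was left unused (0 columns).

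The heading of spk-1(RNAi) replicate 1 stood over 2 columns, which were told apart by the authors' ratios, equal in 100% of introns for 1 numbering and in at most 1.73% for the others. Those ratios pair libraries by number, and deviations from group means correlated at 0.888, 0.691, 0.733 and 0.778 in the 4 pairs. Crossed libraries gave 0.706 (spk-1(RNAi) replicate 3 with control replicate 4) and 0.715 (replicate 4 with control replicate 3). For replicates 1 and 2 the crossed values were 0.358 and 0.244. The correlations therefore do not tell pairs 3 and 4 apart, and that pairing rests on the authors' numbering. Gene symbols for 393 of 394 X-linked sequence names came from a reference table of another build; coordinates are those of the files, counted from 1.

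Counts were summed per gene and tested over the whole table with edgeR 4.0.16 (quasi-likelihood, TMM, group alone, Benjamini-Hochberg at 0.05) in R 4.3.3. DESeq2 1.42.0, the replicate block, other scalings and filters and left-out libraries were alternatives, and diffSpliceDGE tested splice sites. filterByExpr removed 0 genes. CPM are TMM-scaled junction counts, with separate scaling for genes and for introns. Fits were also run on simulated counts to check the code, and no result given here rests on those runs. Named genes were the 10 with most reads, the 10 with the smallest blocked p, 5 with the most positive and 5 with the most negative difference in share, up to 4 members per list, and the 5 introns with the smallest p. The members and lists were chosen with earlier results of these data known.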

Additional observations from a re-analysis of the deposited data

Results flagged for a closer look

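Among 86 sets of 4 libraries of 1 group, for the genes named, 5 held a library far from the other 3, where chance gives about 5% of sets. The gap to the nearest library, as a fraction of the whole range of the set, was 0.845 for col-178 after spk-1(RNAi), where replicate 2 had 787 CPM and the others 130.6, 223.6 and 232.2 CPM. It was 0.955 for sex-1 after spk-1(RNAi), where replicate 2 had 28.1 CPM and the others 5.85, 6.84 and 6.46 CPM, and 0.875 for spp-5 after spk-1(RNAi), where replicate 4 had 870 CPM and the others 613.4, 643 and 646 CPM. In controls it was 0.908 for lin-15B, where replicate 1 had 4.22 CPM and the others 9.94, 10.3 and 10.5 CPM, and 0.864 for dgn-1, where replicate 1 had 5.44 CPM and the others 14.5, 14.9 and 15.9 CPM.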

How the results depend on the processing

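EdgeR called 0 X-linked genes and 0 X-linked introns with and without the replicate block, under each scaling and filter, and with each library left out in turn. With pairs left out of the blocked fit 0 to 2 genes were called (2 without replicate 1, F53H4.2 and clec-266, or 0.508% against 0.0868% of all genes, and 1 without replicate 2, F53H4.2, or 0.254% against 0.121%). Introns called were 0 to 2 (2 without replicate 1, both of clec-266, or 0.216% against 0.143% of all introns). With the block on pairs 2 and 3 alone, whose headings are unambiguous, 3 genes were called (F53H4.2, clec-266 and his-24, or 0.761% against 0.295%), and with pairs 3 and 4 alone 1 gene (0.254% against 0.121%) and 4 introns (0.432% against 0.271%); these subsets were chosen after seeing the data. DESeq2's test with the block called 3 genes (0.761% against 0.885%) and 5 introns (0.541% against 0.246%). Splice sites and introns within genes had 0 calls on the X in each fit. The difference in X-linked share ran from 0.584 to 1.21 points with single libraries left out. It was 0.488 points without the 10 genes with most reads, which were then also taken out of the total. The median difference between X and autosomes was 0.12 with the replicate block, as without it, 0.0223 in pair 1 alone and 0.20 in pair 2 alone. Without the block it was 0.0444 to 0.18 with single libraries left out, lowest without spk-1(RNAi) replicate 2. With whole pairs left out of the blocked fit it was 0.11 to 0.15. Genes above the median count held 29 X-linked genes higher in every pair and 2 lower, of 109. These are 26.6% and 1.83%, against 10.9% and 8.40% of all genes above the median count. With a pair left out, 87 to 111 of all X-linked genes were higher in every remaining pair and 33 to 40 lower. Those counts take fewer pairs, and the matching shares over all genes were not computed. Windows whose median exceeded that of all genes were 77.8% to 100% of all, with 100% without spk-1(RNAi) replicate 1. Blocked values changed no other call. Of 957 values of the named genes under alternatives, 74 had the other sign without being called, and 9 were calls. The causes were not tested. Retained introns and introns used mainly after spk-1(RNAi) are not measured by the table, and few reads in replicates 1 and 2 limit the genes with low counts.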
